A study of Rattus norvegicus with 15 samples.

Results

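The heat shock and J-domain chaperones of the rat subfornical organ were taken as every gene whose symbol in the probe annotation names an Hspa, Hsp90, Hsph, Hspd, Hspe or Hspb protein, the factors Hsf1 or Hsf2, or a Dnaja, Dnajb or Dnajc protein. Hspa5, Hsp90b1 and Hspa4l were left out by that rule. It found 61 genes with 98 probe sets, of 14217 genes in all, and it used no measured value. The 61 genes were 39 J-domain genes and 22 others. Of these, 55 genes with 79 probe sets were bright enough to be tested, among 11510 genes tested in all. Hspa12b, Dnajc22, Hspb3, Hspb2, Dnajb7 and Hspa1l were below the filter and have no test. No probe set is assigned to Hspa8, Hsp90aa1 or Hspa1b alone, so these 3 genes were not analysed here.

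The groups were food deprivation, water deprivation and control, with 5 Affymetrix arrays each and RNA pooled from 5 animals on each array. All animals were male Sprague Dawley rats aged 10 to 12 weeks, of no stated genetic modification. The labels give 48 h for food deprivation, while for water deprivation the sources used here give no length. The series design text, taken word for word, has food withheld for 48 h in every condition, so the feeding of the control and water-deprived animals rests on the sample labels. A pool averages its animals, so the spread between arrays is that between pools.

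Heat shock proteins are molecular chaperones that bind unfolded or partly folded proteins. Hsp70 proteins (Hspa) work in cycles of ATP hydrolysis that J-domain proteins (Dnaja, Dnajb, Dnajc) start and direct to particular clients, and Hsp110 proteins (Hsph1, Hspa4) close by exchanging the nucleotide. Hsp90 matures kinases and receptors, Hspd1 with its lid Hspe1 folds proteins inside mitochondria, and small heat shock proteins (Hspb) hold unfolded proteins without using ATP. Under heat or other protein-damaging stress the factor Hsf1 binds heat shock elements in the promoters of many of these genes. In neurons, J-domain proteins also act at synaptic vesicles and clathrin coats.

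The arrays differed technically in a way that followed food deprivation. The 5′ to 3′ signal ratio of the Actb and Gapdh control probes, which falls as RNA degrades or copies stay short, divided them at a log2 ratio of -1 into a high set of 7 and a low set of 8. The high set held food-deprived arrays 1 to 5 and water-deprived arrays 1 and 2, and the low set held water-deprived arrays 3 to 5 and controls 1 to 5. Food deprivation and array set therefore cannot be told apart in the comparison with control. Only the water-deprived arrays hold both sets within 1 treatment, and there the sets also differed in tissue markers, as described with the array sets. Correlations between arrays ranged from 0.835 to 0.981. Of 9 marker genes of the subfornical organ, 8 passed the filter, and the summed signal of the 9 was 1451 to 1650 in food-deprived, 1156 to 2673 in water-deprived and 1298 to 2436 in control arrays. Summed choroid plexus and ependyma markers (9 of 14 listed genes with a probe set) were 5899 to 11348, 2724 to 13969 and 4053 to 10489 in the same groups, with overlapping ranges. Summed oligodendrocyte markers (14 of 15 with a probe set) were 12812 to 18599 in food-deprived, 5640 to 15382 in water-deprived and 6214 to 20282 in control arrays. Of 13 such markers tested, 11 were above 0 in the difference between food deprivation and control (median 0.56) and 0 in that between water and food deprivation (median -0.71). Summed microglia and macrophage markers (15 of 15) were 2346 to 3087, 1795 to 3134 and 1971 to 3645 in the same order, and 1 of 14 tested was above 0 between water deprivation and control (median -0.24). No choroid plexus, oligodendrocyte or microglia marker passed the limma test between groups (at most 6 of 14 at an unadjusted p below 0.05, for microglia and macrophages). Of 11 astrocyte markers tested, Glul and Atp1b2 were called between food deprivation and control, 1 higher and 1 lower. Of 12 endothelial and mural markers tested, Cldn5 and Acta2 were called higher there, and of 19 neuron markers 0 were called. Among all genes, 3.12% were called higher and 2.62% lower. The part of these markers in the chaperone values was not tested.

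Most chaperone genes read near their control level in the food-deprived arrays, all of which belong to the high array set while the controls belong to the low one. Of the 55 tested, 3 were higher (5.45%, against 3.12% of all genes), namely Dnajb6, Hspb7 and Dnajc7, and 0 were lower (against 2.62% of all genes), by limma with Benjamini-Hochberg adjustment over all probe sets. The median difference was 0.0042 on the log2 scale, beside 0.027 over all genes tested, and 45 of the 55 lay within 0.25 of 0 (81.8%, against 68.2% of all genes). At an unadjusted p below 0.05 there were 11 of 55, against 21.3% of all genes. Gene counts here and in what follows refer to the brightest probe set of each gene unless a probe set is named. The 95% interval lay within 1.5-fold for 44 genes and within 2-fold for 53, all but Dnajb6 and Hspb6. These intervals leave out the array set. With it as a term other genes also passed 2-fold, among them Dnajb13 (-0.22 to 1.32) and Dnajb5 (-0.48 to 1.16). In 4 genes every food-deprived array was above every control (against 6.82% of all genes) and in 3 every one was below (against 5.24%).

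**Figure D1:**
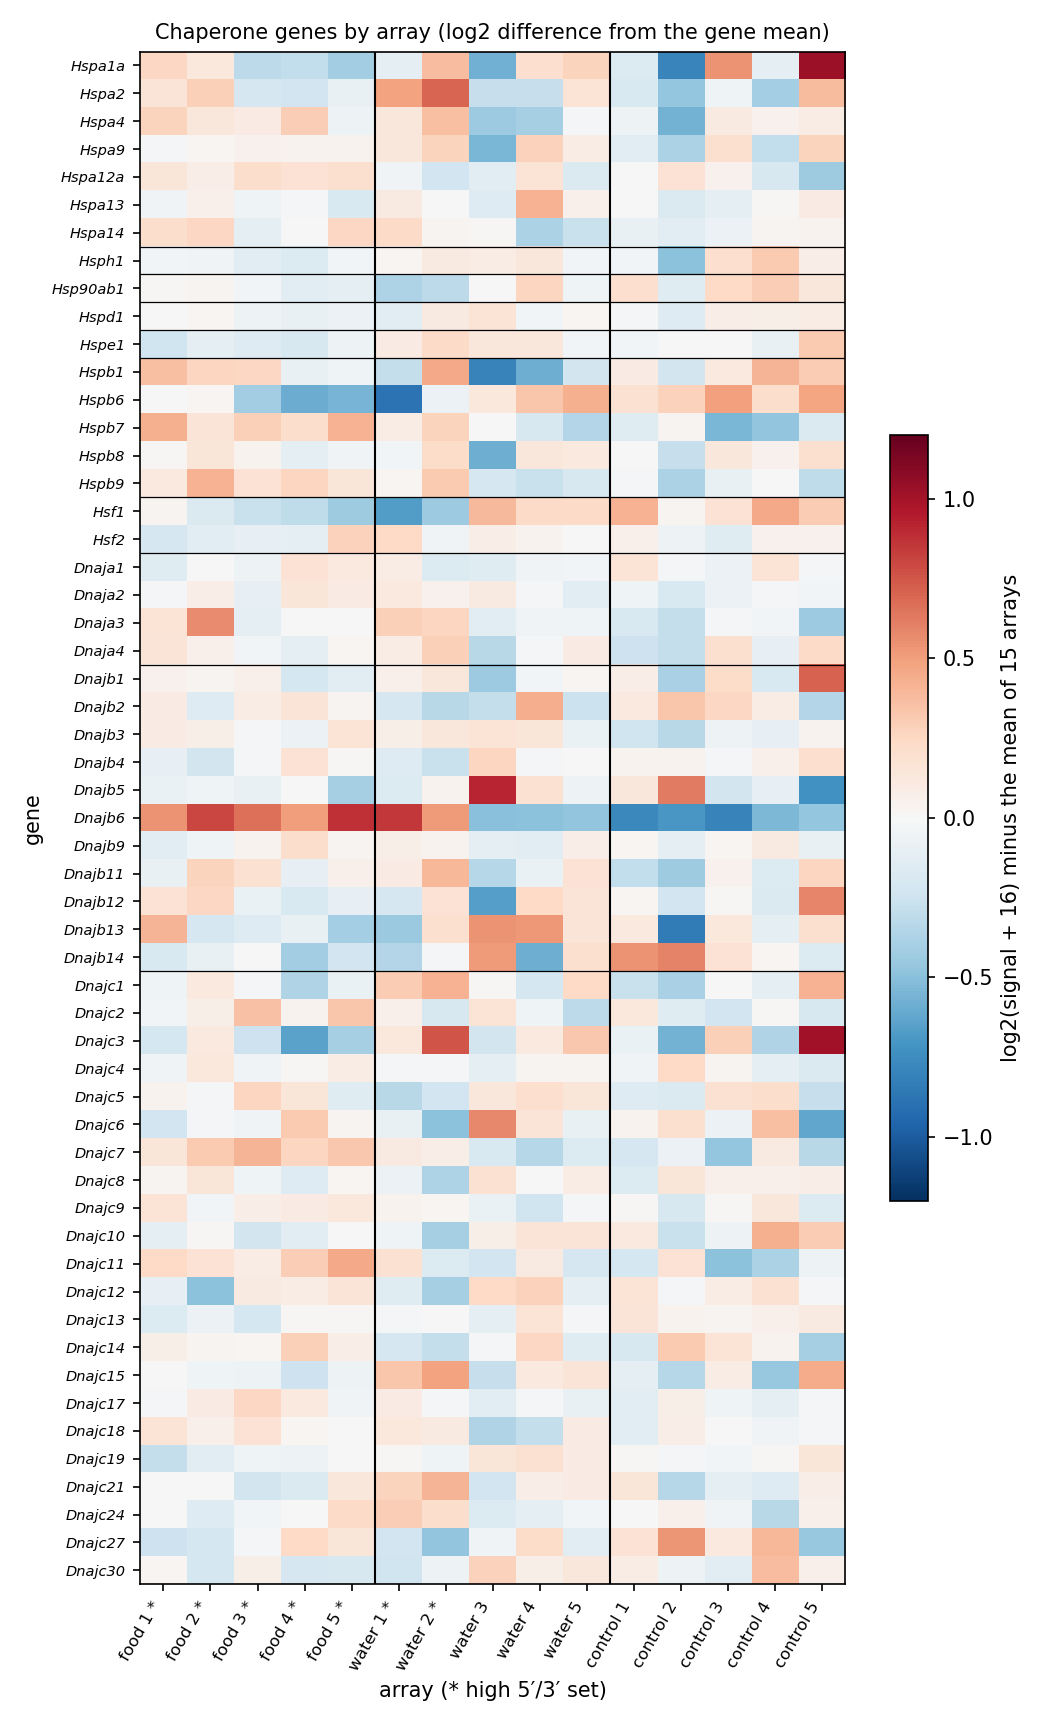
Log2 signal of the 55 tested chaperone genes (rows, grouped by family) in the 15 arrays (columns), each as the difference from that gene's mean, with red for above and blue for below and asterisks on the arrays of the high 5′/3′ set. Dnajb6 is red in the 7 asterisked arrays and blue in the other 8, while most other genes stay pale.

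Dnajb6, a J-domain protein that keeps polyglutamine and other aggregation-prone proteins soluble, had the largest difference and is measured by a single probe set. Its signal was 259, 312, 281, 251 and 331 in the food-deprived arrays, against 94.4, 100.2, 92.1, 114 and 120.4 in controls. Every food-deprived array was above every control, with a fold difference of 2.52 (log2 1.33, SE 0.23, limma adjusted p = 0.00434). In the water-deprived arrays the same probe set read 323 and 252 in arrays 1 and 2, and 117, 118 and 120.0 in arrays 3 to 5. The first pair lies within the food-deprived range and the other three within the control range, which is the division into high and low array sets. With the array set as a term, the difference between food deprivation and control was 0.17 (95% interval -0.21 to 0.55, adjusted p = 0.79).

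Dnajc7 carries tetratricopeptide repeats through which it binds both Hsp70 and Hsp90. It read 325, 367, 393, 353 and 372 in the food-deprived arrays, against 253, 279, 208, 317 and 229 in controls. The ranges did not overlap, and the log2 difference was 0.48 (SE 0.12, limma adjusted p = 0.0230). Hspb7, a small heat shock protein known from heart muscle, read 108, 86.1, 96.0, 90.0 and 106 under food deprivation, against 66.6, 77.9, 46.7, 49.9 and 65.5 in controls. Its ranges did not overlap either (log2 0.56, SE 0.14, limma adjusted p = 0.0217). In water-deprived arrays 1 and 2 Dnajc7 read 317 and 311, against 256, 228 and 260.4 in arrays 3 to 5. Hspb7 read 81.5 and 94.3 in arrays 1 and 2, against 75.8, 64.3 and 55.8 in arrays 3 to 5. With the array set as a term both differences between food deprivation and control were smaller, at 0.16 for Dnajc7 (adjusted p = 0.80) and 0.20 for Hspb7 (adjusted p = 0.78).

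Without control 3, Dnajb6 was the 1 gene still called. Without water-deprived array 1 the count was 6, and without water-deprived array 2 it was 5. With the array set as a term the count was 0, as it was over all probe sets tested, and 27 of the 55 genes kept the sign of their difference. With the 5′/3′ ratio itself as a covariate the count was also 0.

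Several genes had food-deprived arrays apart from controls without passing the test. Hspb9, a small heat shock protein known from testis, was above the controls in every food-deprived array (log2 0.39, SE 0.13, limma adjusted p = 0.067). It was dim, at 32.1 to 43.2 under food deprivation and 18.1 to 28.2 in controls, beside a filter at a signal of 18.6. In water-deprived arrays 1 and 2 Hspb9 read 29.0 and 39.1, against 22.4, 20.7 and 22.7 in arrays 3 to 5. Hspb6, a small heat shock protein best known in muscle, read 214, 218, 157, 136 and 141 under food deprivation, against 247, 264, 309, 250.4 and 303 in controls (log2 -0.64, SE 0.21, limma adjusted p = 0.066). Hsf1, the main activator of heat shock genes, read 123, 105, 97.3, 94.2 and 85.5 under food deprivation, against 165, 124, 137, 171 and 152 in controls (log2 -0.50, SE 0.18, limma adjusted p = 0.093). For both, every food-deprived array was below every control. Dnajc13, which acts in endosomal sorting, was also below in every array, by -0.16 (SE 0.08). Dnajc11, a mitochondrial J-domain protein, differed by 0.44 (SE 0.13, limma adjusted p just above the threshold of 0.05) with overlapping ranges. A dimmer Dnajc11 probe set, 1386711_a_at, read 40.4 to 53.0 under food deprivation, against 30.8 to 53.0 in controls.

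**Figure D2:**
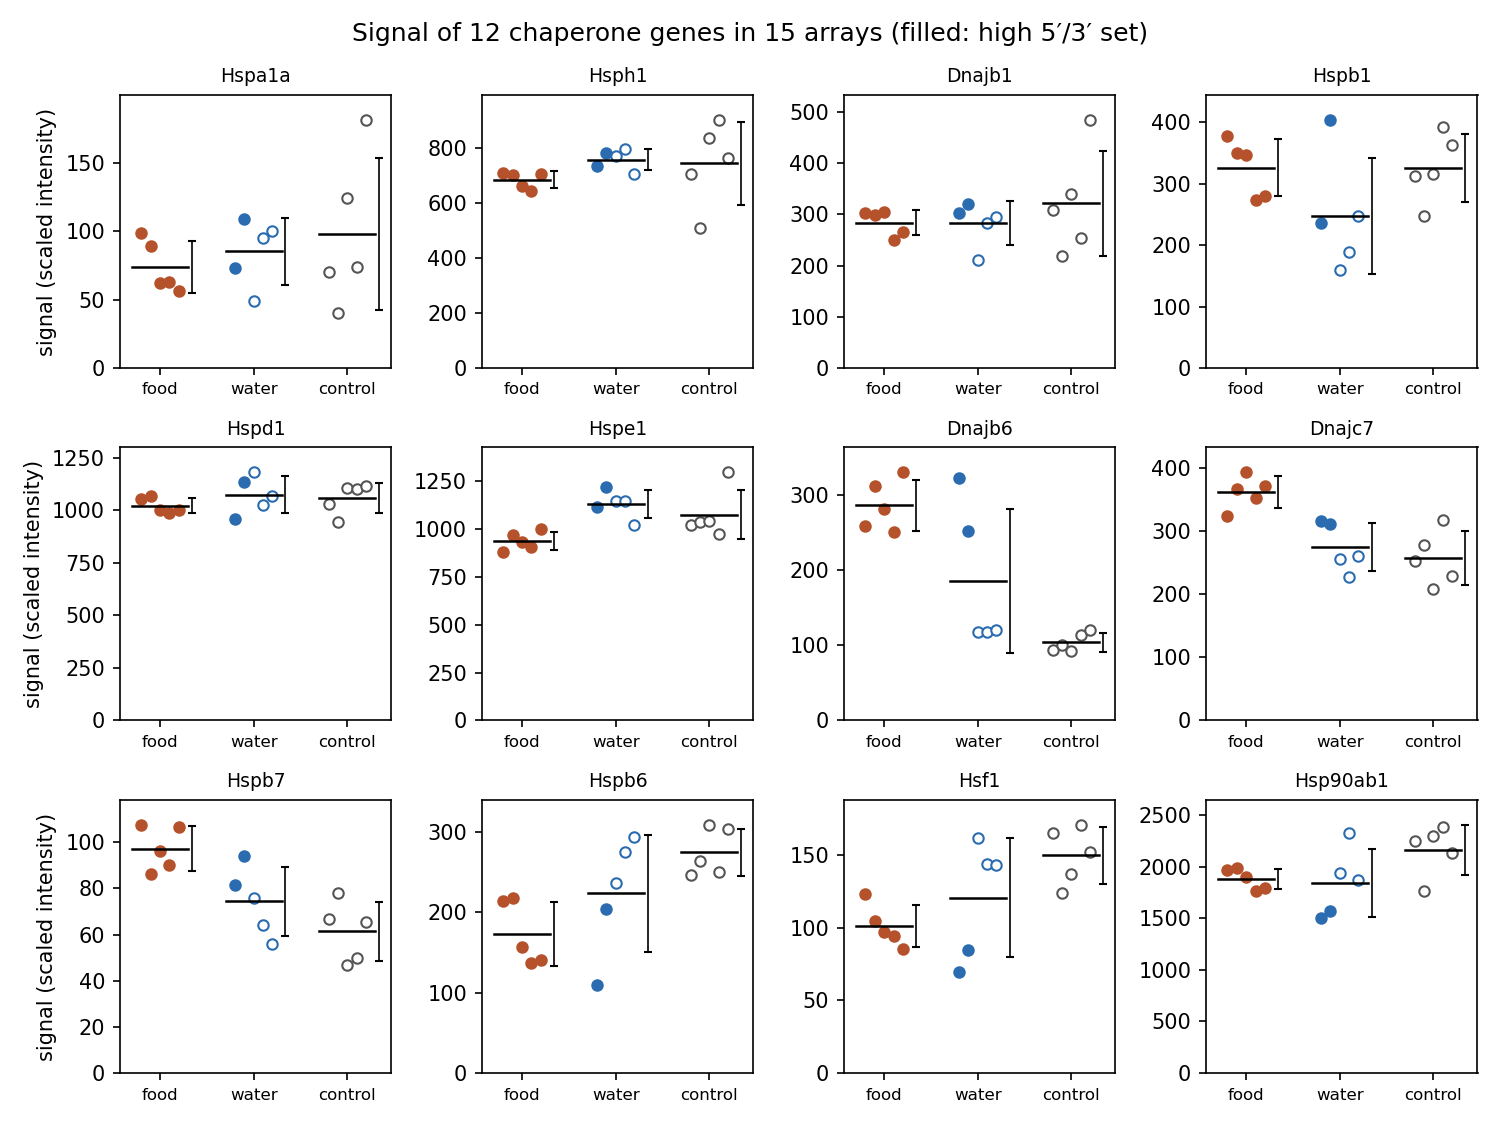
Signal of 12 chaperone genes in each array, with food deprivation left, water deprivation in the middle and control right, and filled circles for the high 5′/3′ set (horizontal line, group mean; vertical bar, SD, n = 5). Filled and open circles separate in Dnajb6, Dnajc7, Hspb7, Hspb6, Dnajb1, Hsf1 and Hsp90ab1 within the water-deprived group. Hspa1a and Dnajb1 spread most among the controls.

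Measured by their brightest probe sets, none of the listed genes of the classical heat shock response passed the test under either deprivation. Of 13 listed genes, 10 had a probe set of their own and 9 were tested: Hspa1a, Hsph1, Hsp90ab1, Hspb1, Hspd1, Hspe1, Dnaja1, Dnajb1 and Dnajb4. The list holds Hsp90ab1 although it is the constitutive cytosolic Hsp90. By limma 0 of 9 passed against control under food deprivation (1 at an unadjusted p below 0.05) and 0 of 9 under water deprivation (2 at an unadjusted p below 0.05). Among all genes, 3.12% were called higher and 2.62% lower under food deprivation, and 0.00869% were called under water deprivation. The shares of all genes at an unadjusted p below 0.05 were 21.3% and 6.59%. These shares also apply to the counts of the short lists that follow, where few calls or none would be usual for any genes. Under food deprivation their differences ran from -0.23 to 0.0042, with a median of -0.093, beside 0.027 over all genes. Under water deprivation they ran from -0.43 to 0.076, with a median of -0.10. A dimmer probe set of Hsp90ab1 was called lower under food deprivation, as described with the probe sets. The highest upper end of any of these 95% intervals was 1.33-fold (log2 0.41) for food deprivation, at Hspb1, and 1.43-fold for water deprivation, at Hspa1a. These intervals are from the fit without the array set. With the array set as a term, the interval of Dnajb4 for food deprivation reached log2 0.54, and Hsp90ab1 differed by 0.21 (SE 0.15). The highest upper end over the 9 genes is not given for that fit, so the bounds above do not hold for it.

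Promoter windows of the chaperone genes were searched for heat shock elements, the letters that Hsf1 binds, and matches before the start are shown for 4 classical response genes that have them and for Dnajb6, the gene with the largest difference. They come from RefSeq windows of build GRCr8 that run from 250 bases before to 50 after a gene's start, and they are written 5′ to 3′ on the gene's own strand. Capitals mark each match to GAANNTTC or TTCNNGAA, a pair of inverted heat shock units, searched on both strands, with matches allowed to overlap.
Hspe1, chr9:64084256-64084285, plus strand: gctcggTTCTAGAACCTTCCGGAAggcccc
Hsph1, chr12:10427248-10427367, plus strand: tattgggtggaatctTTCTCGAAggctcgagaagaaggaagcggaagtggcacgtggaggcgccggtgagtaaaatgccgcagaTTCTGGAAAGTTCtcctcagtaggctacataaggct
Hspb1, chr12:26432302-26432441, minus strand: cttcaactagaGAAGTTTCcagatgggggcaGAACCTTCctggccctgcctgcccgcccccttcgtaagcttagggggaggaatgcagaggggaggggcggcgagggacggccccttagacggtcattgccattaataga
Dnajb1, chr19:41431142-41431201, minus strand: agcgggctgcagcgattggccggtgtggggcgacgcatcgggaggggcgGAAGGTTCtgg
Dnajb6, chr4:6232115-6232174, minus strand: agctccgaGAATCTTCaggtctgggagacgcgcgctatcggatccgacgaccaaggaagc

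The run of 18 capitals beside Hspe1 also lies upstream of the start used for Hspd1, which is read from the opposite strand. The starts of this pair lie 290 bases apart, their windows share 211 bases, and the run in the Hspd1 window is the reverse complement of the one shown. Windows were found for 49 of the 61 chaperone genes. The 2-unit motif was present in 13 of them (26.5%, against 15.9% of 33469 windows). A motif of 3 alternating units, which contains overlapping 2-unit matches, was present in 4, namely Dnaja1, Hspd1, Hspe1 and Hsph1 (8.16%, against 0.798%). The CCAAT box was present in 38.8%, against 37.5%. Dnajb1 has a further 2-unit match 17 bases after its start, outside the stretch shown, and Dnaja1 has 3 matches that are not shown. The windows of Hspa1a and Hsp90ab1, also on the list of classical response genes, hold no match, which says only that these letters are not in those windows. A match describes these letters and does not show that a factor binds.

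Medians lay near 0 in genes with and in genes without the motif. Under food deprivation the 13 tested genes with the 2-unit motif had a median of -0.027 with 1 called (Dnajb6), and the 32 without had a median of 0.028 with 2 called. Under water deprivation the medians were -0.044 and 0.028, with 0 called in each.

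Hsph1, the Hsp110 exchange factor with a 3-unit element close to its start, read 708, 703, 660.2, 643 and 706 in food-deprived arrays, against 705, 509, 836, 902 and 765 in controls. The food-deprived arrays lay inside the control range (log2 -0.093, SE 0.12). In the water-deprived arrays it read 733, 781, 770, 797 and 707 (log2 0.051 against control, SE 0.12), also inside that range. Hspd1 and Hspe1, the mitochondrial chaperonin and its lid, differed from control by -0.048 (SE 0.077) and -0.19 (SE 0.084) under food deprivation and by 0.019 and 0.076 under water deprivation.

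Hspa1a encodes the inducible Hsp70, the usual mark of a heat shock response. It read 98.8, 89.4, 62.1, 62.7 and 56.5 in food-deprived arrays, 73.2, 109, 48.9, 94.9 and 101 in water-deprived arrays, and 70.1, 40.0, 125, 74.0 and 182 in controls. The controls alone spanned both other groups. The difference from control was -0.23 under food deprivation (95% interval -0.82 to 0.36) and -0.074 under water deprivation (95% interval -0.67 to 0.52). Without control 5 the first became 3.1e-05 and the second 0.16. Dnajb1, its main cytosolic J-domain partner, read 303, 298, 305, 249 and 266 under food deprivation, 304, 321, 211, 284 and 296 under water deprivation and 309, 219, 341, 255 and 485 in controls. Control 5 was again the highest of the controls and control 2 the lowest.

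The control pools in which Hspa1a and Dnajb1 stood lowest and highest also differed in their cell type markers. Among controls, the SD on the log2 scale was 0.70 for Hspa1a, 0.62 for Dnajc3, 0.49 for Dnajb5, 0.43 for Dnajb13 and 0.42 for Dnajb1, beside a median of 0.19 over the 55 genes. In 15 of the 55 genes control 2 was the lowest and control 5 the highest control (27.3%, against 16.8% of all genes), and in 7 the order was reversed (12.7%, against 15.4%). This order was chosen after it was seen in Hspa1a and Dnajb1, which are among the 15, so the first share is partly fixed by that choice. Control 5 had the lowest summed neuron markers of the controls (6340) and the highest choroid plexus and ependyma markers (10489), and control 2 had the highest neuron markers (17924) and the lowest choroid plexus markers (4053). Summed oligodendrocyte markers were 6214 in control 5 and 20282 in control 2. Their part in the spread was not tested, and in pooled tissue a smaller share of a cell type and less RNA per cell cannot be told apart.

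Of the 7 tested Hspa genes, which encode the Hsp70 family and the Hsp110 protein Hspa4, 0 passed the limma test under food deprivation (1 at an unadjusted p below 0.05) and 0 under water deprivation (0 at an unadjusted p below 0.05). Under food deprivation they ran from -0.23 for Hspa1a to 0.24 for Hspa12a, and all 7 lay within 0.25 of 0. Their median there was 0.13, and with the array set as a term it was -0.18, with 2 of the 7 keeping their sign. Hspa4, an Hsp110 exchange factor, read 265, 242, 235, 271 and 209 under food deprivation, against 209, 142, 237, 227 and 233 in controls (log2 0.22, SE 0.16). Those ranges overlapped, and control 2 was the lowest of the 10 arrays.

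None of 4 J-domain genes listed for roles at synapses or in neurons passed the test. Dnajc5, the cysteine string protein of synaptic vesicles, read 633, 609, 738, 682 and 556 in food-deprived arrays, against 551, 545, 699, 713 and 506 in controls (log2 0.10, SE 0.13). Dnajc6, the auxilin that strips clathrin from vesicles, differed by 0.029 (SE 0.19) and Dnajb2, a J-domain protein rich in neurons, by -0.044 (SE 0.15). With Dnajb5 these 4 genes had 0 called by limma (0 at an unadjusted p below 0.05 in both comparisons), and their median was -0.0076 under food deprivation and 0.028 under water deprivation. These medians leave out the array set. With it as a term they were 0.44 and 0.22, with 0 called in each. Between the high and the low array set 0 of the 4 were above 0 (median -0.42).

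A list of J-domain proteins of the endoplasmic reticulum, of which Dnajb9, Dnajb11, Dnajc1, Dnajc3 and Dnajc10 were tested, had 0 of 5 called in either comparison with control by limma, with 0 of 5 at an unadjusted p below 0.05 in both. Their medians were -0.0090 under food deprivation and 0.16 under water deprivation. With the array set as a term these medians were -0.15 and 0.025. Dnajc3, which restrains the unfolded-protein kinases, read 94.0, 122, 91.3, 65.5 and 80.5 under food deprivation, 123, 199, 93.0, 122 and 143 under water deprivation and 105, 69.7, 139, 83.3 and 239 in controls. Its ranges overlapped in all 3 pairs of groups. The list does not hold Dnajc14. The 7 tested genes of a list of mitochondrial chaperones, which holds Hscb although the symbol rule leaves it out and does not hold Dnajc11, had medians of -0.048 under food deprivation and 0.076 under water deprivation and 0 called by limma (2 and 0 at an unadjusted p below 0.05).

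Water deprivation changed no chaperone gene past the test. Of the 55 genes 0 were called by limma (4 at an unadjusted p below 0.05, against 6.59% of all genes), in a comparison in which 0.00869% of all genes were called. No gene had all water-deprived arrays above the controls (against 0.46% of all genes) or all below them (against 0.33%). The median difference was 0.017, 46 genes lay within 0.25 of 0 (83.6%, against 82.5% of all genes), and the 95% interval lay within 1.5-fold for 44 and within 2-fold for 54, all but Dnajb6. Dnajb6 was the only one beyond 1.5-fold in its estimate (log2 0.64, SE 0.23, limma adjusted p = 0.72). Its signal was 323 and 252 in water-deprived arrays 1 and 2 and 117 to 120.0 in the others.

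Hspb1, the small heat shock protein also called Hsp27, had the most negative difference under water deprivation. It read 236, 404, 160, 189 and 248 in water-deprived arrays, against 312, 247, 317, 392 and 364 in controls. Water-deprived array 2 was the highest of the 10, and the ranges overlapped (log2 -0.43, SE 0.19, limma adjusted p = 0.75). With the array set as a term the difference was -0.68 (SE 0.19, adjusted p = 0.50), and without water-deprived array 2 it was -0.61.

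**Figure D3:**
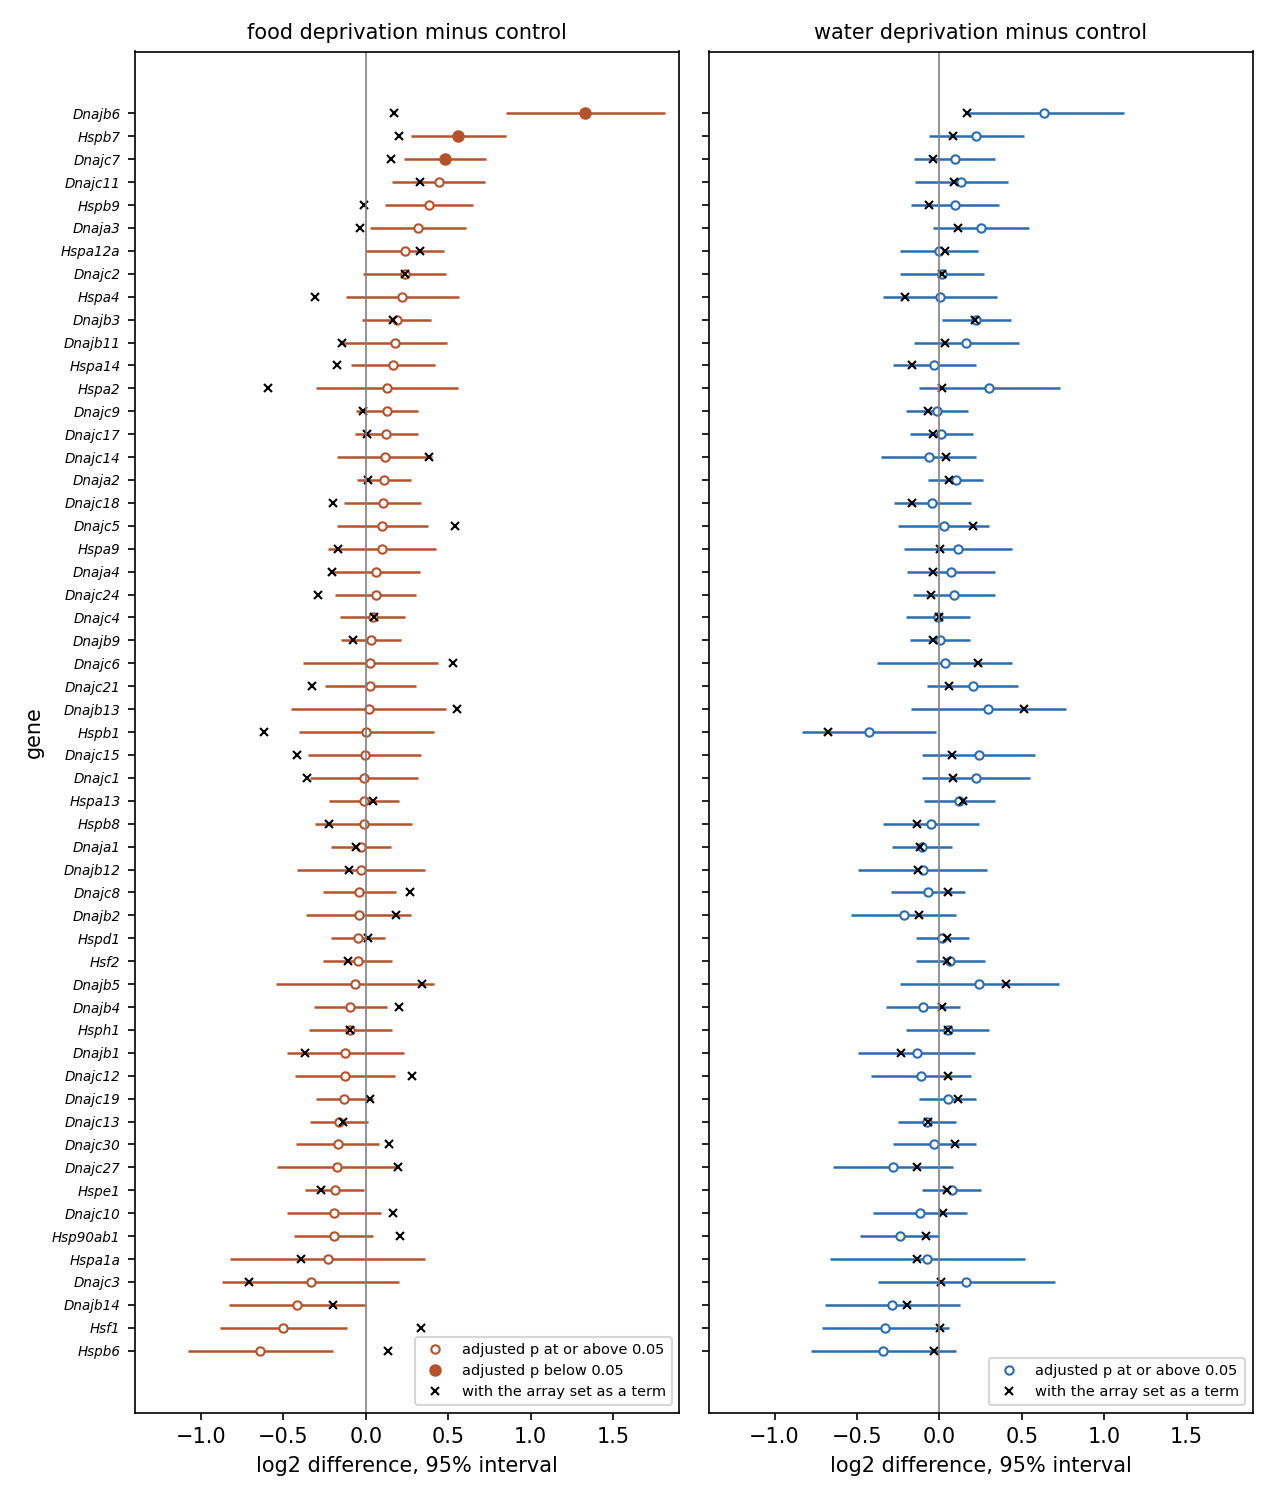
Log2 difference from control of the 55 chaperone genes under food deprivation (left) and water deprivation (right), with 95% intervals of the limma fit, filled circles for an adjusted p below 0.05 and crosses for the value with the array set as a term. Dnajb6, Hspb7 and Dnajc7 are filled on the left, no gene is filled on the right, and the crosses of those 3 genes lie between 0.16 and 0.20 on the left.

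Set directly against food deprivation, water deprivation gave 0 of 55 genes called by limma (9 at an unadjusted p below 0.05, against 12.5% of all genes), where 0.0956% of all genes were called. Hspe1 read 1115, 1220.2, 1145, 1148 and 1019 in water-deprived arrays, against 879, 968, 932, 908 and 998 in food-deprived arrays. Every water-deprived array was above every food-deprived one (log2 0.26, SE 0.084, limma adjusted p = 0.15). Dnajc7 was the reverse, with 317, 311, 256, 228 and 260.4 in water-deprived arrays all below the food-deprived ones (log2 -0.39, SE 0.12, limma adjusted p = 0.13). Without water-deprived array 1 Dnajb6 was called, at -0.91, and without water-deprived array 2 Hspb1 was called, at -0.62.

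Chaperone genes also differed between the high and the low array set. With the 3 groups in the same fit, 2 of 55 genes were higher in the high set (against 6.48% of all genes) and 3 were lower (against 8.09%), by limma. The higher ones were Dnajb6 (log2 1.16, SE 0.15, adjusted p = 0.00035) and Hspa2, an Hsp70 known from testis (0.72, SE 0.23, adjusted p = 0.048). The lower ones were Hsf1 (-0.84, SE 0.16, adjusted p = 0.0035), Hspb6 (-0.77, SE 0.23, adjusted p = 0.036) and Hsp90ab1, the constitutive cytosolic Hsp90 (-0.40, SE 0.12, adjusted p = 0.039). These values rest on water-deprived arrays 1 and 2 against 3 to 5, the only group with both sets.

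Within the water-deprived group, Hsf1 read 69.4 and 84.5 in arrays 1 and 2, against 162, 144 and 143 in arrays 3 to 5. Hsp90ab1 read 1505 and 1568, against 1937, 2333 and 1873. Both genes were lower in both high arrays than in every low one. Hspb6 read 109 and 204, against 236, 275 and 294, with the same order, and without water-deprived array 1 its set difference was -0.36. Leaving out 1 array moved the count from 5 to between 2, without water-deprived array 4, and 7, without water-deprived array 5. It was 3 without food-deprived array 3, without control 1 and without any 1 of water-deprived arrays 1, 2 and 3, and Dnajb6 and Hsf1 were called each time. All 9 choroid plexus and ependyma markers with a probe set had a value above 0 in this comparison (median 0.90, 1 called), while 7 of 8 tested markers of the subfornical organ were below 0 (median -0.87, 3 called lower). Their part in the chaperone values was not tested.

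**Figure D4:**
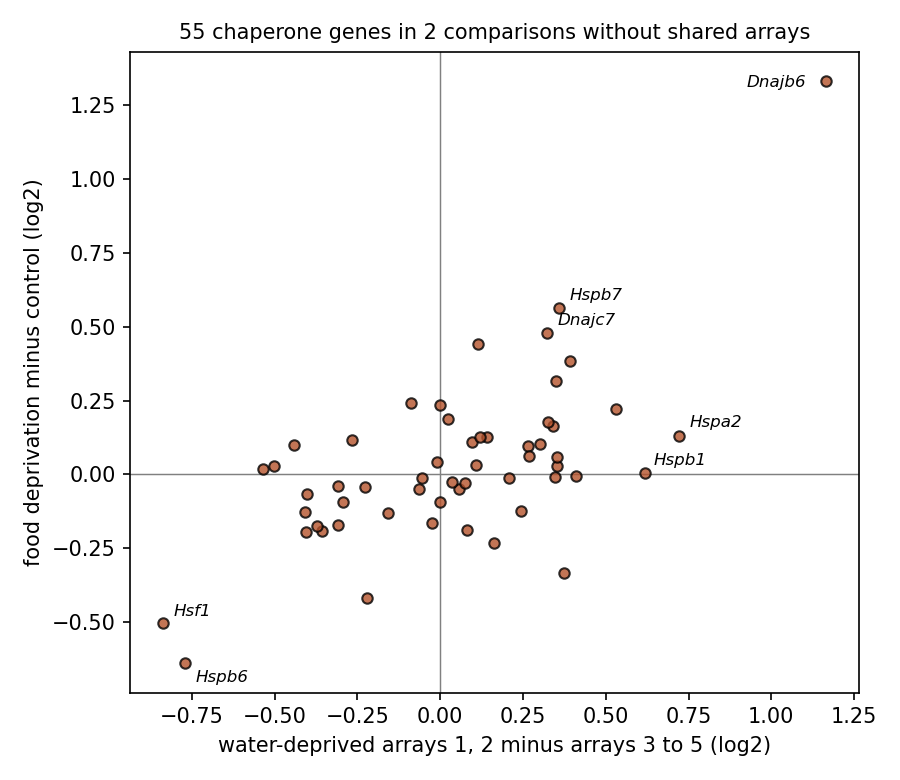
Difference between food deprivation and control (vertical, log2) against the difference between water-deprived arrays 1 and 2 and water-deprived arrays 3 to 5 (horizontal, log2) for the 55 chaperone genes. Dnajb6 lies at the upper right in both and Hsf1 and Hspb6 at the lower left, and 38 of the 55 genes have the same sign on both axes.

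Across the 55 genes, the difference between food deprivation and control tracked that between the high and the low water-deprived arrays, with Pearson's r = 0.65 and the same sign in 38. Without Dnajb6, r was 0.55 over 54 genes. Neither the correlation nor the count of signs was computed over all genes, so the relation is not shown to be particular to chaperones. The arrays on one axis are not on the other, the genes share the arrays within an axis, and the value is a description across genes, which are not independent. Food deprivation and the high array set come together on the vertical axis, and their shares cannot be told apart.

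Different probe sets of the same chaperone gene did not always give the same answer. Of 19 genes with at least 2 tested probe sets, 11 had differences of opposite sign between food deprivation and control, 6 had probe sets more than 0.5 apart, and the median spread within a gene was 0.38. The same counts were not made over all genes, so they are not shown to be particular to chaperones. Over probe sets, 7 of 79 were higher (8.86%, against 4.77% of all probe sets) and 1 was lower (1.27%, against 3.76%), by limma. Of these 8, 5 belong to genes whose brightest probe set did not pass. All 8 had the same sign in water-deprived arrays 1 and 2 against arrays 3 to 5, a share that was not computed over all called probe sets.

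Hsf2, a heat shock factor active in development, shows it best. Its probe set 1391423_at read 137, 123, 176, 119.7 and 157 in food-deprived arrays, against 51.6, 56.3, 36.8, 53.1 and 47.6 in controls (log2 1.28, SE 0.23, limma adjusted p = 0.0057). The ranges did not overlap, and in the water-deprived arrays it read 123 and 122 in arrays 1 and 2, and 49.3, 40.7 and 48.0 in arrays 3 to 5. Another Hsf2 probe set, 1387430_at, was also called higher by limma, with 106, 111, 107, 131 and 148 in food-deprived arrays, against 78.5, 65.6, 65.3, 80.3 and 74.3 in controls. It read 135 and 121 in water-deprived arrays 1 and 2, and 66.8, 78.7 and 87.2 in arrays 3 to 5. The brightest Hsf2 probe set, 1382598_at, differed by -0.049 (SE 0.098) between food deprivation and control.

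Hsp90ab1 showed the opposite direction. Probe set 1375335_at read 474, 434, 546, 444 and 543 in food-deprived arrays, against 1620.1, 1952, 1711, 1085 and 1067 in controls (log2 -1.54, SE 0.21, limma adjusted p = 0.0016). Every food-deprived array was below every control, while the brightest Hsp90ab1 probe set, 1375336_at, differed by -0.19 (SE 0.11) with overlapping ranges. In the water-deprived arrays 1375335_at read 685 and 797 in arrays 1 and 2, and 1362, 965 and 1485 in arrays 3 to 5. Arrays 1 and 2 were thus below arrays 3 to 5 and above every food-deprived array. In Hspa9, the mitochondrial Hsp70, probe set 1389930_at was higher by 0.72 (SE 0.21, adjusted p = 0.046) and the brightest differed by 0.098 (SE 0.15). In Dnajc14, a J-domain protein of the endoplasmic reticulum membrane, probe set 1369714_at was higher by 0.57 (SE 0.17, adjusted p = 0.046) and the brightest differed by 0.12 (SE 0.14).

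**Figure D5:**
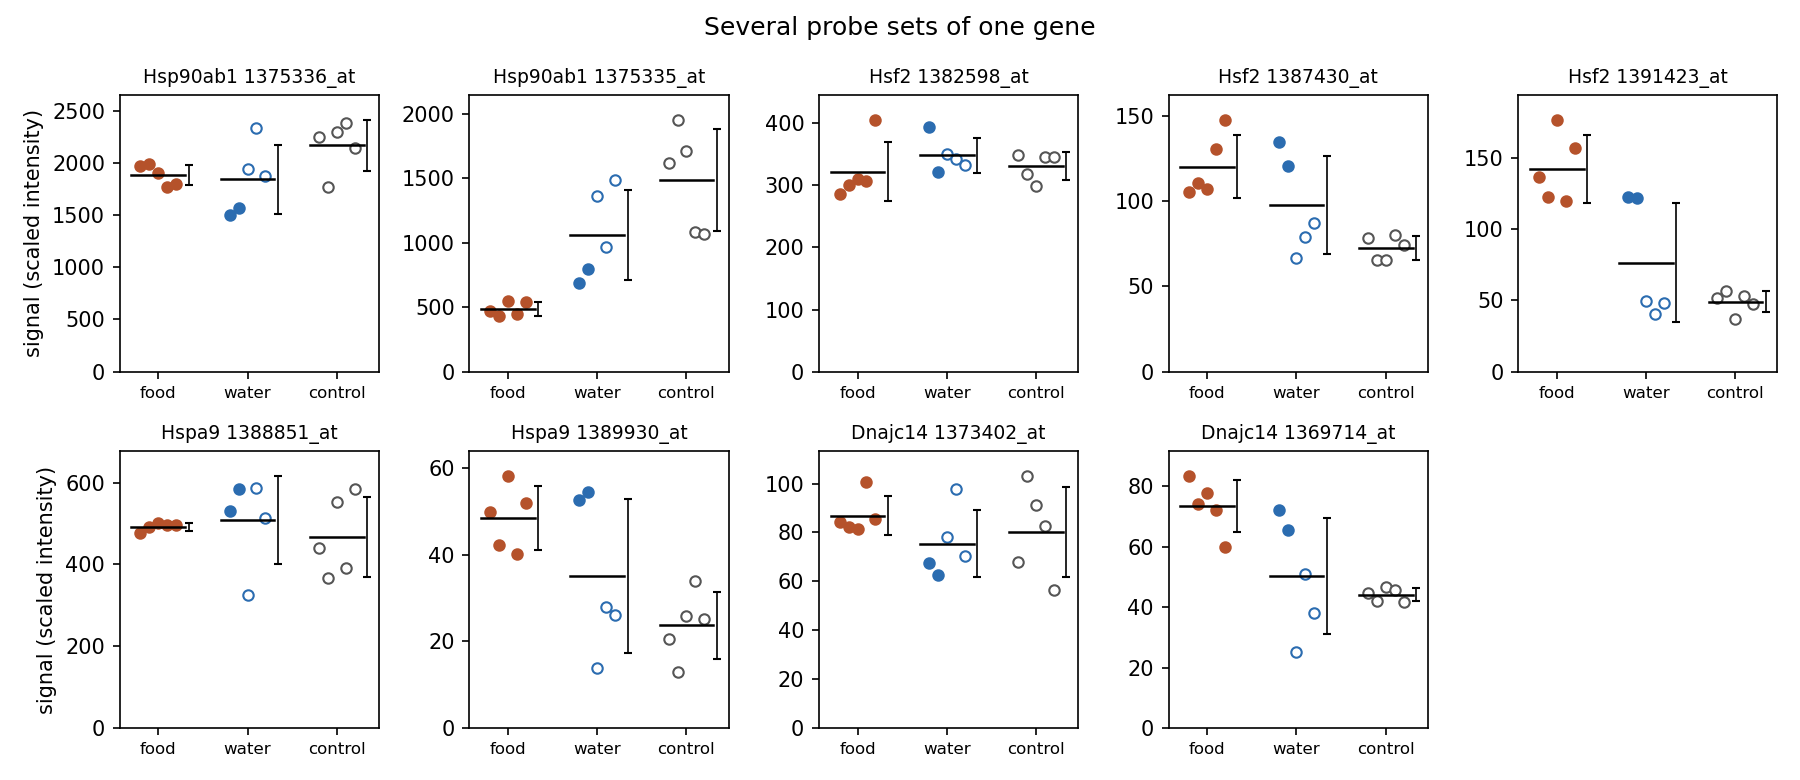
Signal of several probe sets of Hsp90ab1, Hsf2, Hspa9 and Dnajc14 in each array, with food deprivation left, water deprivation in the middle and control right, and filled circles for the high 5′/3′ set (line, mean; bar, SD, n = 5). In Hsf2 1391423_at the 7 filled circles, from 119.7 to 176, lie above the 8 open ones, from 36.8 to 56.3, while Hsf2 1382598_at shows no such step.

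Of the partners that work with these chaperones, Bag1 and Ppp5c passed the test under food deprivation. Of 51 listed co-chaperones and chaperonin or prefoldin subunits, 48 were tested. Under food deprivation 2 were higher (4.17%, against 3.12% of all genes) and 0 lower by limma, the higher ones being Bag1, a nucleotide exchange factor of Hsp70 (0.35, SE 0.09, adjusted p = 0.030), and Ppp5c, a phosphatase docked on Hsp90 (1.02, SE 0.26, adjusted p = 0.026). With the array set as a term they were 0.19 and -0.010. Under water deprivation 0 of 48 were called (6 at an unadjusted p below 0.05). Bag3, a co-chaperone that heat shock induces, differed by -0.14 (SE 0.15) under food deprivation and -0.22 under water deprivation. Between the array sets 7 were called (14.6%, against 14.6% of all genes), with 3 higher and 4 lower, among them Stip1, which hands clients from Hsp70 to Hsp90 (-0.77, SE 0.18, adjusted p = 0.013).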

How the data were processed

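The authors deposited 1 table of linear signal intensity, a value for each probe set and array, made with GCOS 1.2 per the submitters' processing notes. Tested on the table, every array has a trimmed mean of 100.0 (2% trimmed at each end), so arrays were scaled before deposit, and no further normalization was applied. Signals were used as log2(signal + 16), so differences of dim probe sets are understated. Of 31099 probe sets, 57 are controls, 20826 carry 1 gene symbol in the supplied annotation, 436 carry several and 9780 none. Probe sets with a mean above the 30th percentile of all (log2 5.11) were tested, 21729 in number. A gene is represented by the single-symbol probe set that is brightest on average.

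The 3 groups were fitted together with limma 3.58.1 in R 4.3.3 (moderated tests with a variance trend, two-sided, 12 residual degrees of freedom, 11 with the array set), with Benjamini-Hochberg adjustment over all probe sets tested and a threshold of 0.05. Fold differences are on the log2(signal + 16) scale. The fit was tested on simulated data. Arrays give no counts, so their number limits the precision.

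Genes named are those that passed with all arrays of one group above, or all below, the other group's mean, a set of well-known chaperones, and genes whose probe sets disagree. Other genes are named because their groups did not overlap, because their estimate lies at the edge of its family, or as members of a role. The members, lists and tests were chosen with earlier results of these data known. The list of classical response genes, the partners and the cell type markers are textbook lists. Promoter windows came from RefSeq (GRCr8). Alternatives covered scaling, offset, filter, variance model, arrays fitted, minimum fold, gene summary, array set, 5′/3′ ratio, replicate number as a block, and each array left out. Same-number arrays deviated together (correlation above 0.1) in 3 of 15 pairs, from -0.36 to 0.37, so the numbers were not taken as pairs. Figures were drawn with matplotlib.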

Additional observations from a re-analysis of the deposited data

Results flagged for a closer look

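Within-group spread was checked in 69 groups of 5 arrays, and in 4 an array lay far from the rest, with a gap to its nearest neighbour, as a share of the group's range, above 0.71. Chance alone gives about 1 such group in 20. Hspe1 was highest in control 5, with 1296 against 975 to 1044 in the other controls (gap 0.761). The brightest Hsf2 probe set was highest in food-deprived array 5, with 405 against 286 to 310 in the others (gap 0.772). Hspa9 was lowest in water-deprived array 3, with 325 against 514 to 586 (gap 0.774). The brightest Dnajc14 probe set was highest in food-deprived array 4, with 101 against 81.6 to 85.4 (gap 0.787). These arrays were kept in all tests.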

How the results depend on the processing

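The count of 3 chaperone genes called between food deprivation and control was 1 with a minimum of 1.5-fold, 0 with the array set as a term or the 5′/3′ ratio as a covariate, 5 with the mean of all probe sets, 7 with only the 10 arrays compared, and 1 to 6 leaving out 1 array; the replicate block gave 3. Water deprivation against control gave 0 throughout, and water against food deprivation gave 0, or 0 to 1 leaving out 1 array. The array set count of 5 was 3 with quantile normalization, 3 with no filter, 2 with the replicate block, 9 with the mean of all probe sets, and 2 to 7 leaving out 1 array. Some differences changed sign, all but that of Hsf2 without a call. For food deprivation minus control, the array set term gave Hspd1 0.015, Hspb1 -0.61, Hsf1 0.33, Hspb6 0.13, Hsp90ab1 0.21, Hspa9 -0.17, and, by probe set, Dnajc14 1369714_at -0.11, Hsf2 1387430_at -0.011 and Hspa9 1389930_at -0.15. The 5′/3′ ratio gave Hspd1 0.0012, Hspb1 -0.30 and Hspa9 -0.16. The mean of all probe sets gave Hsph1 0.0032, Dnajb1 0.041 and Hsf2 0.61 (limma adjusted p = 0.024). Median centring, which moves the median of all genes by about 0.1, gave Hspb1 -0.097 and Hspa9 -0.0035. For water deprivation minus control, quantile normalization gave Hspd1 -0.015, and the array set term and the low set alone gave Hsf1 0.0054. For water minus food deprivation, the array set term and the high set alone gave Hsf1 -0.33, Dnajb1 0.13 and Dnajb6 0.0013, the ratio gave Hsf1 -0.070 and Dnajb1 0.12, and median centring gave Dnajb1 0.079. For the array set, Hsph1 was 0.016 with quantile normalization, 0.19 with the replicate block and 0.096 with the mean of all probe sets. Leaving out 1 array, food deprivation minus control ran from -0.45 to 3.1e-05 for Hspa1a, -0.087 to 0.072 for Hspb1 and -0.24 to 0.031 for Dnajb1; water deprivation minus control from -0.30 to 0.16 for Hspa1a, -0.076 to 0.13 for Hsph1, -0.022 to 0.059 for Hspd1 and -0.26 to 0.018 for Dnajb1; water minus food deprivation from -0.060 to 0.082 for Dnajb1; and the array set from -0.11 to 0.40 for Hspa1a, -0.049 to 0.045 for Hsph1 and -0.19 to 0.058 for Hspd1. Apart from fewer arrays or a stricter rule, the cause of these changes was not tested. By replicate number 1 of 15 arrays correlated best with its own number.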
